A study of Mus musculus with 7 samples.

Results

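The 10 genes described here carry the growth hormone, insulin-like growth factor (IGF) and insulin signal in the liver: Igf1, Igfals, Igfbp1, Igfbp2, Igfbp4, Ghr, Insr, Irs1, Irs2 and Socs2. They were taken by symbol from 21536 protein-coding genes of the mouse genome (GRCm38). For each, peaks of the retinoic acid receptors RARα and RARβ, and of their partner retinoid X receptor α (RXRα), were collected whose midpoint lay inside the gene or within 50 kb of it. This gave 529 of the 245004 peaks of the series. The peaks came from chromatin immunoprecipitation followed by sequencing (ChIP-seq) on livers of male C57BL/6 wild type mice aged 3 months. The mice were fed normal diet (control) or a retinoic acid diet (RA). The labels give 1 day of feeding, and the study's methods give a longer treatment, so the duration is unclear. Each receptor and diet has 1 library and 1 peak list, so no difference below has a replicate check, and no test between diets or receptors could be made. How many animals a library holds is not given in the sources used here. The study gives totals of mapped reads for RXRα and RARα without naming a diet, and none for RARβ. The read depth of each library used here is therefore unknown, so the length of a list and its depth cannot be told apart.

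Growth hormone binds its receptor Ghr on hepatocytes, and the kinase JAK2 and the factor STAT5 pass the signal to genes such as Igf1, Igfals and Socs2. IGF-I is secreted and travels in the blood bound to IGF binding proteins and to the acid-labile subunit encoded by Igfals. Insulin acts through its receptor Insr and the adaptors Irs1 and Irs2, and it lowers transcription of Igfbp1 through the FOXO factors. RXRα is the common partner of many nuclear receptors, the RARs among them, and RA is the ligand of the RARs.

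All 10 genes had at least 1 peak in all 6 lists. The share of all protein-coding genes with a peak in such a window was 83.7% (control) and 84.8% (RA) for RARα. It was 70.2% and 77.8% for RARβ, and 83.7% and 84.3% for RXRα. Under the control diet, the 10 windows held 63 RARα peaks, 35 RARβ peaks and 140 RXRα peaks. Under RA, they held 84, 70 and 137. RXRα was thus the most frequent receptor around these genes with either diet. With every list limited to its 14968 highest-scoring peaks, the control windows held 16 RARα, 35 RARβ and 43 RXRα peaks, and the RA windows 20, 43 and 44. RXRα then still had more peaks than RARα, whereas its numbers were close to those of RARβ. RXRα peaks had a density of 8.54 (control) and 8.36 (RA) per 100 kb of window, against 4.03 and 3.96 over the windows of all protein-coding genes. For RARα the densities were 3.85 and 5.13 against 2.71 and 3.25, and for RARβ 2.14 and 4.27 against 1.31 and 2.23. The density pooled over the 10 windows was therefore higher than that over the windows of all protein-coding genes in all 6 lists. Of the single windows, that of Ghr was less dense than this for RARα under the control diet (1.915). For RARβ under the control diet, those of Ghr (0.821), Insr (0.874) and Igfbp1 (0.955) were less dense. All other single windows were denser in their lists.

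**Figure D1:**
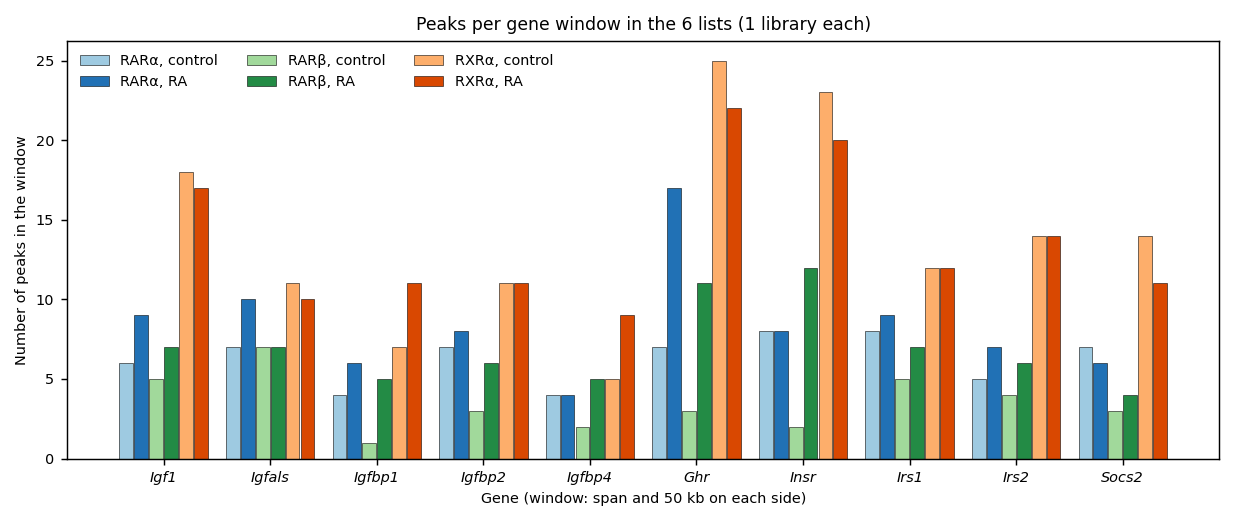
Number of peaks in the window of each gene (vertical axis), with 1 bar per peak list (1 library each, no error bars). RXRα has the highest bars, up to 25 peaks at Ghr under the control diet, and the RARβ bars under RA are higher than or equal to the RARβ control bars at all 10 genes.

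Peaks that overlapped across lists were joined into 171 regions. Of these, 21 (12.3%) were called in all 6 lists and 42 (24.6%) in 1 list, against 9.75% and 29.4% of all regions of the genome. RXRα without any RAR was called at 62 regions (36.3%, and 36.3% over the genome), and a RAR without RXRα at 20 (11.7%, and 20.1% over the genome). For 134 of the 171 regions, the nearest start of a protein-coding gene was that of the gene itself. The share was lowest at Igfals, where 2 of 11 regions were nearest to its own start, followed by Igfbp4 (4 of 8), Igfbp2 (7 of 12) and Ghr (20 of 29). The Igfals window also holds the starts of Hagh, Fahd1, Spsb3, Nubp2, Eme2, Mrps34 and Nme3, and peaks there cannot be assigned to 1 gene.

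**Figure D2:**
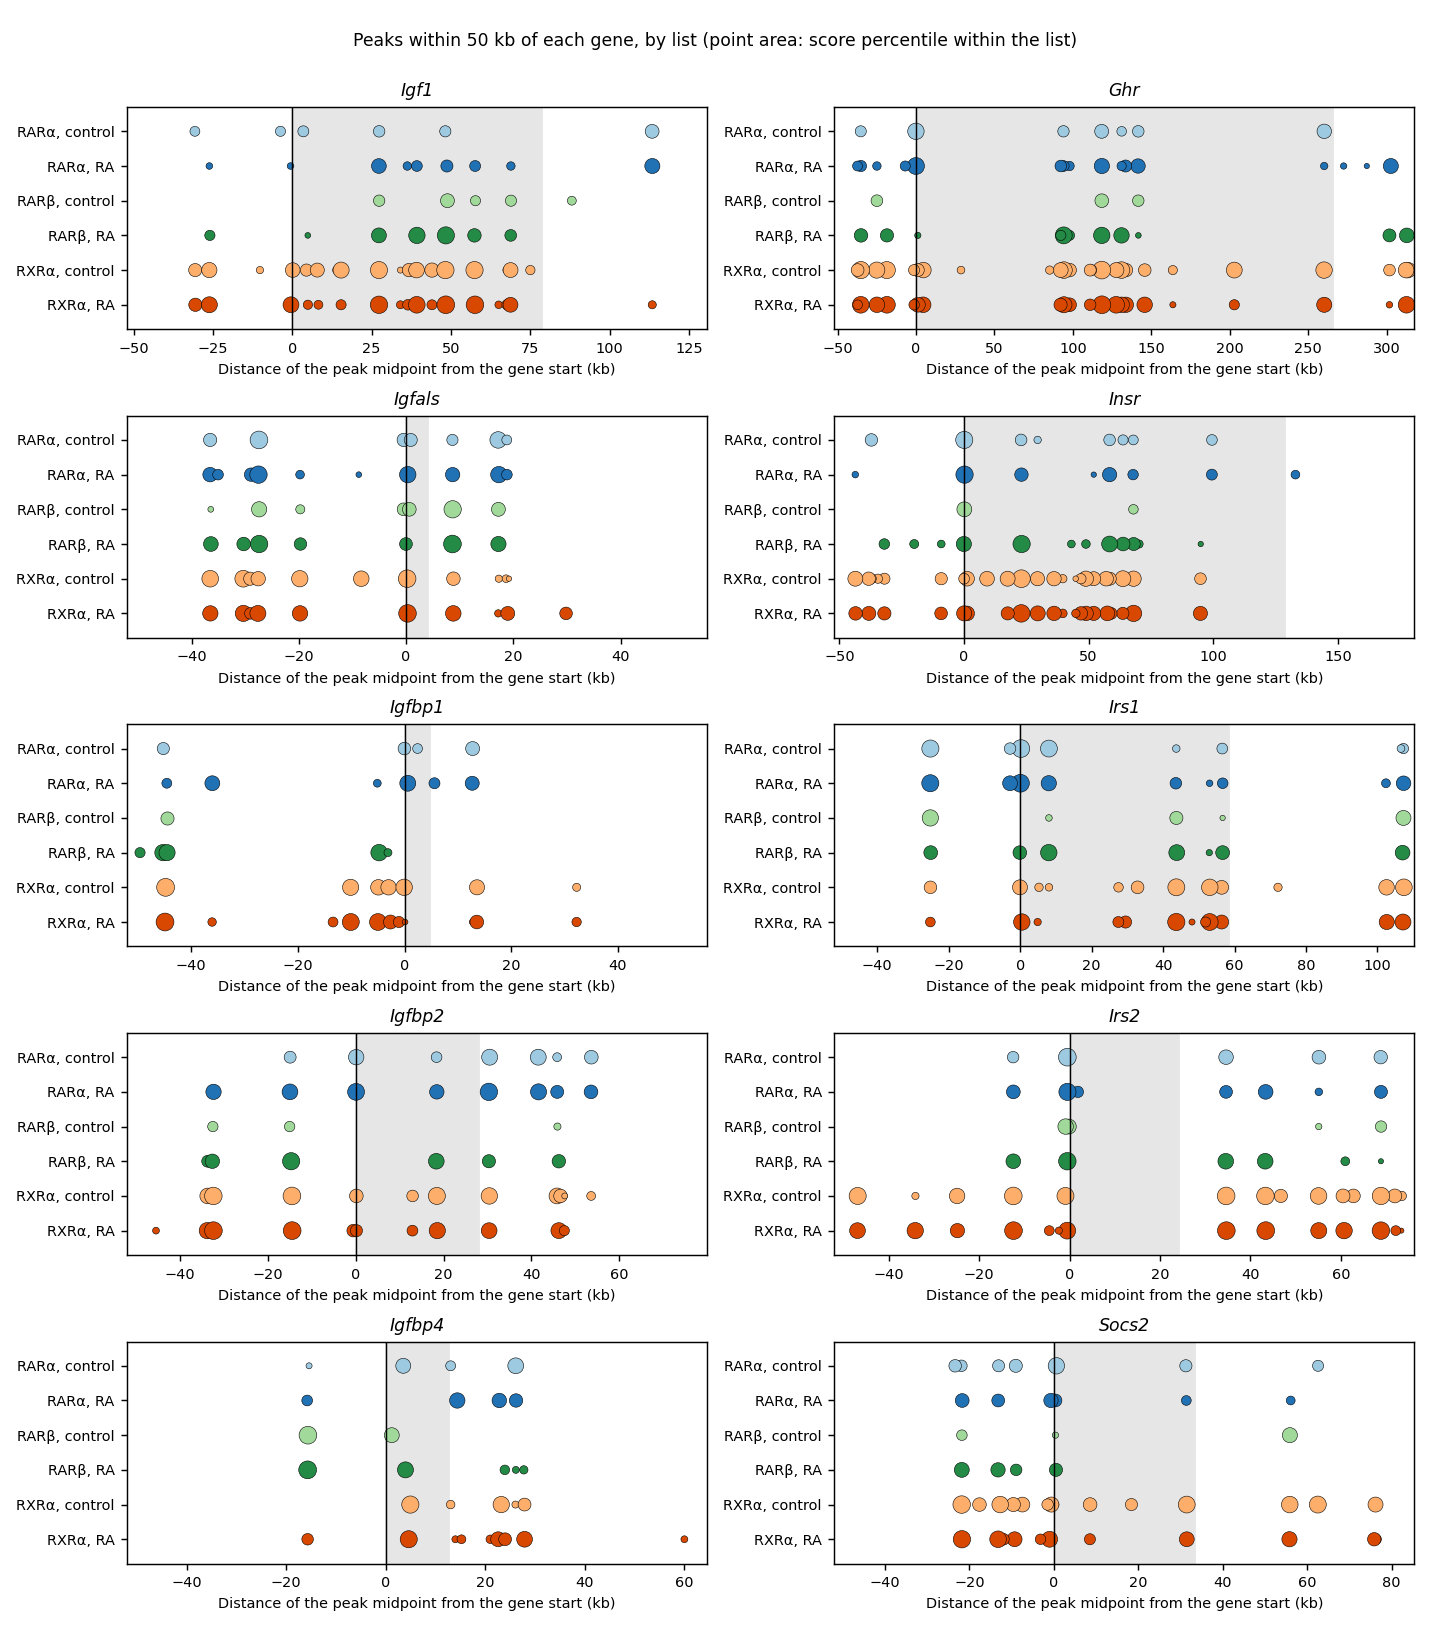
Distance of each peak midpoint from the gene start (horizontal axis, kb, positive in the direction of transcription) for the 6 lists (rows). The grey band is the gene, the black line its start, and the point area grows with the score percentile within the list. RXRα rows are the fullest, and the RARα points with the highest percentiles of Ghr, Insr, Irs1 and Irs2 sit on the start line.

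The sequences before 5 starts are shown because peaks covered these starts in different sets of lists. They are RefSeq sequences of GRCm38 and hold the 250 bases before an annotated start and the start base. RefSeq promoter windows were found for 8 of the 10 genes, without Insr and Socs2. Capitals mark matches on either strand to the receptor hexamer, which was searched as AGGTCA and its variants with G as the first base, with T as the third base or with both, to TTCNNNGAA, the type of site that STAT5 binds, to TGTTTAC, a forkhead site, and to CAAAACA, the core of the insulin response sequences bound by FOXO factors. Igfals, plus strand of chr17:24877981-24878231, has its start inside peaks of all 6 lists. This annotated start, 24878231, is not the outermost one, 24877844, which lay under peaks of 5 lists and under no RARβ control peak. Igfbp1, plus strand of chr11:7197537-7197787, has its start inside both RARα and both RXRα peaks. Irs1, minus strand of chr1:82291439-82291689, has its start inside the strongest RARα peak of its window. Irs2, minus strand of chr8:11008929-11009179, lies under peaks of 5 lists. Ghr, minus strand of chr15:3583352-3583602, lies under RARα peaks and under no RARβ or RXRα peak.
Igfals: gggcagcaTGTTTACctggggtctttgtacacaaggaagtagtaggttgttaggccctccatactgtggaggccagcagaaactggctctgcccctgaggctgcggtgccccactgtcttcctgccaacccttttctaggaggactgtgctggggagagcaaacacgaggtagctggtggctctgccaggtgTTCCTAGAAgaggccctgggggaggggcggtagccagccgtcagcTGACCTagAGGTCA
Igfbp1: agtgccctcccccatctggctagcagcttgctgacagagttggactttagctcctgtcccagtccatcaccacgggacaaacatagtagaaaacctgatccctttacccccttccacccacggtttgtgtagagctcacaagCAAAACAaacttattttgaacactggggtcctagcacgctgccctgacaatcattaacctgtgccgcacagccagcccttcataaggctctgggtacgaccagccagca
Irs1: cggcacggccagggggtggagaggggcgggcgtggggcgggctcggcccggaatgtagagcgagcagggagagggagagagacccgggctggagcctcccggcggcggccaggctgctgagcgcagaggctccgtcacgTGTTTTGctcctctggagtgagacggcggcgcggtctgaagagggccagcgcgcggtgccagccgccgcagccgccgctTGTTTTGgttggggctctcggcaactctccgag
Irs2: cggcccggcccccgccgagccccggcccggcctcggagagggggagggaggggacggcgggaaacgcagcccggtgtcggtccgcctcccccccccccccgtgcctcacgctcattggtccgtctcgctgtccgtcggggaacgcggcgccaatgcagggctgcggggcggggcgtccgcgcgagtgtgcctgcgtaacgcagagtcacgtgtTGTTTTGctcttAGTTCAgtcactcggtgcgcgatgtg
Ghr: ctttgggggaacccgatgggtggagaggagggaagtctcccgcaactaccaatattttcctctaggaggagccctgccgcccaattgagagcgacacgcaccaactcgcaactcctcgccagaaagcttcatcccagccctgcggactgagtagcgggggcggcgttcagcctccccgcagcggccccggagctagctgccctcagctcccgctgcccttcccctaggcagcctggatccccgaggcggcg

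The windows of the Igfals starts at 24877844 and 24878747 held 2 and 0 matches. The Igfals promoter shown above held the most matches. TGACCT lay at bases -13 to -8 and AGGTCA at -5 to 0, counted from the start base as 0, so that these hexamers on opposite strands had 2 bases between them. Such a pair, in any orientation, was present in 0.244% of 32851 promoter windows. This was the only spacing counted in any orientation, and it is that of the pair seen here. The share therefore does not measure how unusual the pair is. TTCCTAGAA lay at -58 to -50 and TGTTTAC at -242 to -236. A match to TTCNNNGAA was found in 7.03% of all promoter windows and a match to TGTTTAC in 3.2%. Irs2 had AGTTCA at -25 to -20, and a hexamer was found in 38.9% of all windows. CAAAACA or its complement occurred in 1 place at Igfbp1 (-108 to -102), in 1 at Irs2 (-37 to -31) and in 2 at Irs1 (-111 to -105 and -32 to -26), against 5.58% of all windows with any match. The Ghr promoter had no match to these letters, although both RARα peaks covered its start. Sequences under peaks away from these promoters were not analysed here.

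Igf1 encodes IGF-I, the hormone through which growth hormone acts on growth. The gene spans 87858265 to 87937047 on chromosome 10, and its window of 178.8 kb held no other protein-coding start. RARα had 6 peaks there under the control diet and 9 under RA, RARβ had 5 and 7, and RXRα had 18 and 17. The best RARβ and RXRα peaks lay inside the gene, and the best RARα peaks lay downstream of it, 113.4 kb from the start, with scores of 128 and 188. At 48.4 kb from the start, a region was called in all 6 lists, with RARα scores of 82.5 (control) and 102 (RA). RARβ scored 83.5 and 244 there, and RXRα 586 and 925. The score is the peak caller's own value for the strength of a peak, derived from its p-value, and it has no common scale between libraries. Ranks within a list are therefore given for some peaks. A pair of scores without ranks does not show a change between diets. In pairs of values, the control value comes first and the RA value follows. The RXRα peak ranked 4065 of 61128 under the control diet and 1228 of 59624 under RA, and the RARβ peak under RA ranked 2544 of 29467. A region at 27.4 kb was also called in all 6 lists, with RXRα scores of 516 and 663. At 39.2 kb, RARβ was called under RA only, with a score of 185, where RXRα scored 276 and 426. At the outermost start of Igf1, RXRα was called under both diets, with scores of 206 and 303, and RARα under RA with 56.2. No RARβ peak lay within 1 kb of this start.

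Igfals was the gene with the most regions called in all 6 lists, 5 of 11. Its start region lay on chromosome 17, and the gene spans 24877844 to 24882011. The best peaks within 1 kb of the start scored 116 and 282 for RARα, 81.3 and 94.4 for RARβ and 759 and 795 for RXRα. The RXRα peaks ranked 2015 and 1987 within their lists, and they were the best RXRα peaks of the window. The other strong regions of the window lay at other genes. The region 0.521 kb from the start of Fahd1 scored 584 and 424 for RARα, and the region 0.248 kb from Nubp2 scored 214 and 431 for RARβ. These were the best peaks of those lists in the window.

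Igfbp1, a binding protein that insulin represses, showed its highest score far upstream. The gene spans 7197787 to 7202546 on chromosome 11. At 44.9 kb upstream of the start, RXRα scored 1471 under the control diet and 1447 under RA, which ranked 119 and 172 in the lists and was the highest RXRα rank among the 10 genes under each diet. RARα scored 95.1 and 75.8 in the same region, at peaks that did not overlap each other. RARβ scored 76.2 there under the control diet. Under RA it had 2 peaks there, with 181 and 172, and only that with 172 overlapped the control peak. At the start itself, RARα scored 101 under the control diet and 239 under RA. RXRα scored 364 there under the control diet and 52.4 under RA. The score percentile, the percentage of the list's peaks that score lower, was 83.1 and 2.12 for these RXRα peaks, and 45.2 and 77.7 for the RARα peaks. RARβ had no peak within 1 kb of the start. Under RA, RARβ was called 4.89 kb upstream with a score of 193, where it was not called under the control diet and RXRα scored 260 and 456. Igfbp3, which encodes the main carrier of IGF-I in blood, starts 17.7 kb downstream, and 3 of the 14 regions were nearest to it. The best RARα control peak of the window was also nearest to Igfbp3, with a score of 132 at 12.8 kb.

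Igfbp2 encodes a binding protein that the liver secretes in fasting. The gene spans 72824480 to 72852474 on chromosome 1. Its best RXRα peaks lay 14.5 kb upstream, with scores of 879 and 1032, and ranked 1262 and 813. The same region was called by RARα with scores of 91.9 and 227 and by RARβ with 60.7 and 256. At the start, RARα scored 192 and 332, RXRα 157 and 129, and RARβ was called under neither diet. At 41.6 kb, a region nearest to Igfbp5 was called by RARα only, with scores of 222 and 251. The best RARα peaks of the window, with scores of 227 and 442, lay at 30.3 kb and were also nearest to Igfbp5, another binding protein gene.

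Igfbp4 was the gene without any peak within 1 kb of its outermost start, in all 6 lists. It encodes a binding protein that restrains IGF action, and it spans 99040005 to 99052655 on chromosome 11. A region of 5492 bp centred 3.54 kb inside the gene held RXRα peaks with scores of 535 and 522 and RARβ peaks with 98.3 and 167. These RARβ peaks did not overlap each other, with midpoints 1.212 kb (control) and 3.966 kb (RA) from the start. RARα scored 169 there under the control diet and had no peak there under RA. An annotated RefSeq start of Igfbp4 at position 99041244 lay under the RARα and RARβ control peaks. The best RARβ peaks of the window, with scores of 388 and 652 and ranks of 290 and 173, lay 0.15 kb from the start of Top2a, a topoisomerase gene that is active in dividing cells. These ranks were the highest for RARβ among the 10 windows and belong to the neighbour's start.

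Ghr, the growth hormone receptor, spans 265598 bp on chromosome 15 (3317755 to 3583352) and had the largest window, 365.6 kb. RARα had 7 peaks under the control diet and 17 under RA, RARβ had 3 and 11, and RXRα had 25 and 22. At the outermost start, RARα scored 264 and 341, and neither RARβ nor RXRα had a peak within 1 kb. The nearest RXRα peaks had midpoints at 1130 bp (control) and -1175 bp (RA), just outside 1 kb. A RARβ peak under RA lay at 1141 bp. Another annotated start, at position 3581842, lay under RARα and RXRα peaks of the RA lists. With the limit of 1 kb, the outermost start of Ghr held the only start region of the 10 genes called by a RAR and not by RXRα. The best RXRα peaks lay inside the gene, 118.5 kb from the start, with scores of 902 and 1014 and ranks of 1165 and 883. RARβ was called in this region with 81.0 and 185, and RARα with 130 and 196. Under RA, RARβ was also called at 94.2 kb with a score of 223 and at 131 kb with 147, where it was not called under the control diet and RXRα was called under both diets. The 3′ part of the window reaches the starts of Ccdc152 and Selenop, a selenium carrier, and a RARβ peak under RA with a score of 128 lay 0.18 kb from the start of Selenop.

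Insr, the insulin receptor, spans 3150922 to 3279649 on chromosome 8, with no other protein-coding start in its window. Its start was called in all 6 lists, with scores of 360 and 405 for RARα, 97.8 and 140 for RARβ, and 90.0 and 240 for RXRα. The RARα peaks ranked 3143 and 3065 of their lists and were the best of the window, whereas the RXRα peaks had percentiles of 30.4 and 69.3. The best RXRα peaks lay 23.0 kb into the gene, with scores of 853 and 716. RARα scored 88.4 and 130 in that region, and RARβ was called there under RA only, with 259. RARβ had 2 peaks in the window under the control diet and 12 under RA, the largest difference in number for RARβ among the 10 genes in the lists as deposited. With scores from 100 upwards, Insr had 0 and 4 RARβ peaks, and Ghr had 0 and 6. With lists of equal length, Insr had 2 and 5, and Ghr had 3 and 6. The ranking of Insr thus rested on low-scoring peaks. RXRα had 23 and 20 peaks in the Insr window.

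Irs1 and Irs2 encode the adaptors that pass the insulin receptor signal to phosphatidylinositol 3-kinase. Irs1 spans 82233105 to 82291439 on chromosome 1. Its start held the highest RARα ranks among the peaks within 1 kb of the 10 starts under RA, with scores of 566 under the control diet (rank 727 of 35521) and 665 under RA (rank 426 of 44296). RXRα scored 223 and 380 at this start. RARβ scored 107 under RA and was not called under the control diet. The best RXRα peaks of Irs1 lay at 43.8 kb, with scores of 467 and 576. RARα was also called 8.01 kb into the gene, with scores of 320 and 196, where RARβ scored 51.8 and 188, and RXRα scored 61.0 under the control diet and was not called under RA.

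Irs2 spans 10984681 to 11008929 on chromosome 8. Its start region was called in all 6 lists, with scores of 580 and 378 for RARα, 108 and 297 for RARβ and 475 and 467 for RXRα. The RXRα control peak had its midpoint 908 bp upstream and did not cover the start base. The RARα peak ranked 669 (control) and 3763 (RA), and the RARβ peak ranked 4160 and 1463. RARα was thus lower and RARβ higher in its list under RA. The strongest RXRα peaks of Irs2 lay on either side of the gene. At 12.4 kb upstream, RXRα scored 873 and 894, and RARβ was called under RA only, with 127. At 43.3 kb, beyond the 3′ end, RXRα scored 705 and 1019, and RARα and RARβ were called under RA only, with 171 and 154. At 34.6 kb, RXRα scored 858 and 890, RARα 151 and 115, and RARβ 154 under RA only. RXRα had 14 peaks under each diet, or 11.3 per 100 kb, the highest density among the 10 genes.

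Socs2 encodes the feedback inhibitor of the growth hormone receptor and spans 95383903 to 95417321 on chromosome 10. Its peak number was lower under RA for RARα (7 and 6) and for RXRα (14 and 11), and RARβ had 3 and 4. The start region, 3934 bp wide, was called in all 6 lists, with scores of 262 and 157 for RARα, 51.3 and 99.3 for RARβ and 228 and 308 for RXRα. The RXRα peak under RA had its midpoint 1005 bp upstream of the start, just outside 1 kb. The best RXRα peaks lay 21.8 kb upstream, with scores of 671 and 625, and all 6 lists had a peak there. At 62.6 kb, RXRα scored 471 under the control diet and was not called under RA, which was the highest score of an RXRα region called under 1 diet only.

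**Figure D3:**
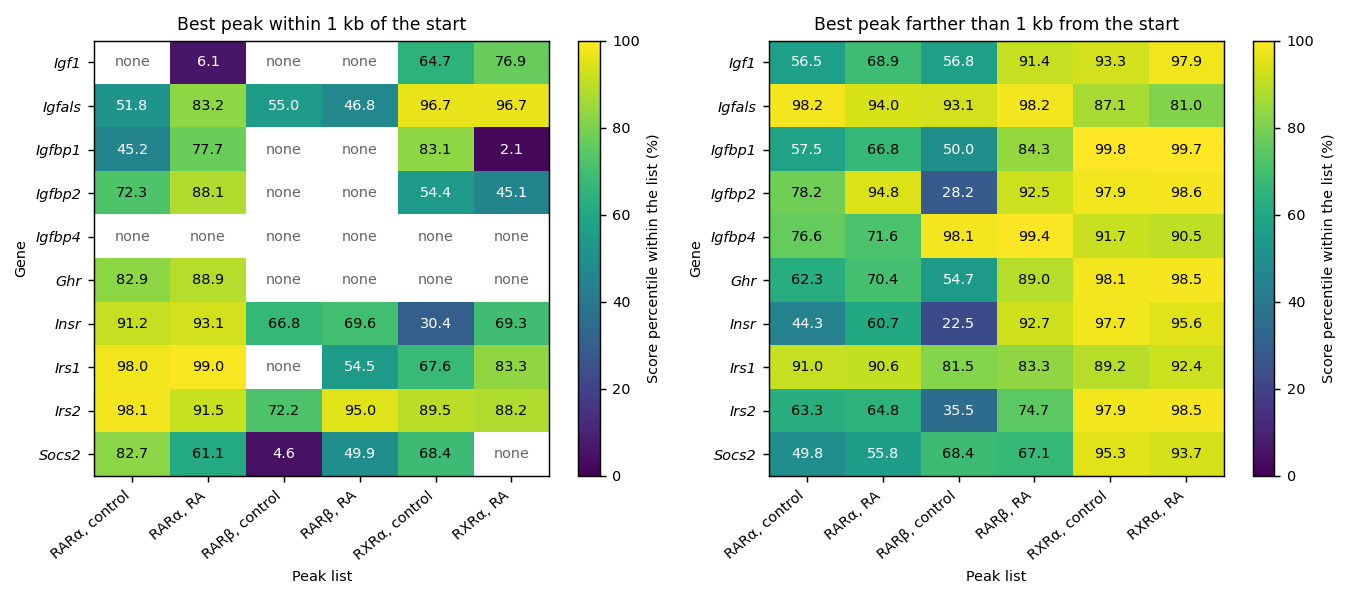
Highest score percentile within its own list of the peaks within 1 kb of each gene start (left) and of those farther away (right), with genes in rows and lists in columns. At the start of Irs1 the RARα control value is 97.95, and on the right the lowest RXRα value is 81.0, at Igfals under RA.

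The starts were compared with the rest of the windows. Within 10 kb of the start, RARα had a peak at 10 genes under the control diet and 9 under RA, against 61.9% and 63.3% of all protein-coding genes. RARβ had one at 6 and 9 genes, against 44.1% and 54.7%, and RXRα at 10 and 10, against 61.3% and 61.7%. For 10 of 10 genes the exact binomial interval starts at 69.2%, and for 6 of 10 it runs from 26.2% to 87.8%. These intervals cover counting error only. With lists of equal length, RXRα (control) was within 10 kb at 4 genes instead of 10, and with scores from 100 upwards RARβ (control) was so at 2 instead of 6. Within 1 kb, the numbers were 8 and 9 for RARα (all genes 45.9% and 46.2%), 4 and 5 for RARβ (33.1% and 40.3%) and 8 and 7 for RXRα (40.1% and 41.9%). In all 6 lists, 5 of the 10 genes had a peak within 10 kb and 3 within 1 kb, against 38.2% and 24.7% of all genes. The 3 genes were Igfals, Insr and Irs2. Within 1 kb, equal lists left RXRα at 3 and 4 genes, and scores from 100 upwards left RARβ at 1 and 3. The shares of all genes were not computed with equal lists or with this score limit.

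RARα peaks at the starts stood higher in their lists than the other RARα peaks of the windows. Their median score percentile was 82.7 within 1 kb and 36.7 beyond it (control), and 85.6 and 37.0 (RA). The RXRα medians were 67.6 near the starts and 61.7 elsewhere (control), and 73.1 and 58.2 (RA). The RARβ medians were 60.9 and 35.5 (control), and 54.5 and 54.1 (RA). The best RARα peak of the window lay within 1 kb of the start at 5 genes under the control diet and 6 under RA. The best RXRα peak did so at 1 gene under each diet, which was Igfals. The starts were few, with 5 to 10 peaks per list within 1 kb, and no test was made on them.

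The next comparison asked how RA changed the occupancy of each receptor around these genes. Dividing the RA count of window peaks by the control count gave 1.33 (RARα), 2.0 (RARβ) and 0.979 (RXRα). The same ratios over the whole lists were 1.25, 1.97 and 0.975. The number of peaks at these genes thus followed the length of the lists. Above a score of 100 the diets were farther apart for RARβ, with 7 such peaks in the control windows and 41 in the RA windows. This is a ratio of 5.86, against 3.06 over the whole lists, and for RARα it was 1.61 against 1.35. When each list was shortened to its 14968 highest-scoring peaks, the RARα ratio was 1.25, the RARβ ratio 1.23 and the RXRα ratio 1.02. RARβ peaks were more numerous under RA at 9 genes and equal at 1, RARα peaks were more numerous at 7 and fewer at 1, and RXRα peaks were more numerous at 2 and fewer at 5.

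By regions, RARβ was called under both diets at 29 (39.7%), under RA only at 40 (54.8%) and under the control diet only at 4 (5.48%). Peaks of different diets in a region need not overlap each other, as for RARβ at Igfbp4. The shares over all RARβ regions of the genome were 35.8%, 54.3% and 9.90%, so the share of RA-only regions was that of the genome. Of the 40 regions with RARβ under RA only, 36 (90.0%) were already called by RXRα under the control diet, and 15 by RARα. Over the whole genome, 86.7% of such RARβ regions were called by RXRα under the control diet. Of the 40 regions, 1 lay at a start, that of Irs1. Insr had 10 of them and Ghr 9. RARα was called under both diets at 50 regions (53.8%, genome 61.7%), under RA only at 32 (34.4%, genome 27.3%) and under the control diet only at 11 (11.8%, genome 10.9%). Ghr had 10 of the 32. Of these 32 regions, 6 had a RARα score of at least 100 under RA. The highest of them were 32.4 kb upstream of Igfbp2 (200) and near the 3′ side of Ghr, nearest to Selenop (186). RXRα was called under both diets at 114 regions (75.5%, genome 66.6%), under the control diet only at 20 (13.2%, genome 17.6%) and under RA only at 17 (11.3%, genome 15.8%). Of the 20, 9 had a score of at least 100, and 4 of these were at Socs2, whereas the 17 held 3 such regions. No genome share was computed for RARα at the 40 RARβ regions, for regions at a start or for scores of at least 100. Those counts therefore do not show whether these genes differ from others.

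**Figure D4:**
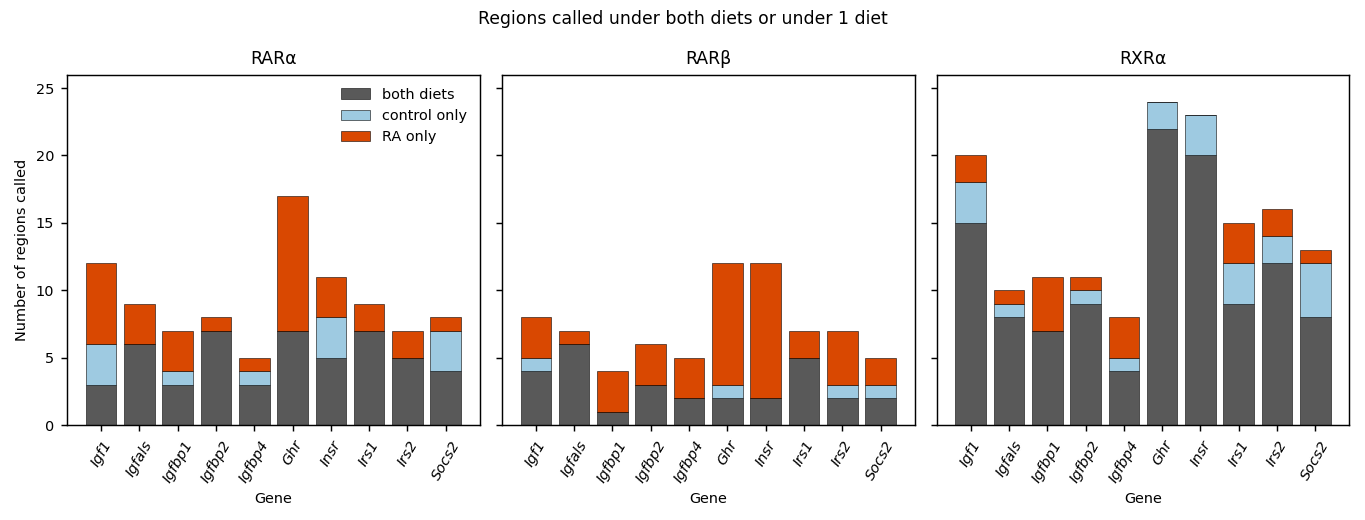
Number of regions (vertical axis) of each gene that were called under both diets, under the control diet only or under RA only, for RARα, RARβ and RXRα. The RA-only part is the largest for RARβ at Insr (10 of 12) and Ghr (9 of 12), whereas RXRα was called under both diets at 22 of 24 regions of Ghr and 20 of 23 of Insr.

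Peaks of different lists counted as shared if their overlap covered 25% or more of both. Of the 63 RARα control peaks in the windows, 76.2% (Wilson 95% interval 64.4 to 85.0) were shared with RARα under RA, against 84.2% of the whole list. The 84 RARα peaks of the RA list had a share of 56.0% (45.3 to 66.1) in common with the control list, which was below the 68.4% of the whole list. For RARβ, 85.7% (70.6 to 93.7) of the control peaks and 28 of the 70 RA peaks (29.3 to 51.7%) were shared with the other diet. For RXRα the shares were 84.3% (77.4 to 89.4) and 84.7% (77.7 to 89.8). The RARβ and RXRα intervals included the shares of the whole lists, which were 75.8% and 38.2% for RARβ and 78.7% and 80.3% for RXRα.

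Between receptors, RARα peaks near these genes lay on RXRα peaks more often than in the whole list. In the control lists, RXRα overlapped 79.4% (67.8 to 87.5) of the RARα peaks of the windows and 61.1% of the whole RARα list. In the RA lists it overlapped 76.2% (66.1 to 84.0) and 61.7%. Both intervals lay above the whole-list value. With lists of equal length, RXRα overlapped 31.25% of 16 RARα window peaks (control) and 40% of 20 (RA). The share of the whole lists was not computed at that length, so the comparison with the whole list holds for the deposited lists only. Wilson intervals treat peaks as independent, whereas many of these peaks share a gene, so they are too narrow. RARβ was shared with RXRα at 85.7% (70.6 to 93.7) of its control peaks and 88.6% (79.0 to 94.1) of its RA peaks, near the 77.85% and 89.87% of the whole lists. It was shared with RARα at 71.4% and 70.0%, against 74.2% and 72.1%. Seen from RXRα, 36.4% of its control peaks and 47.4% of its RA peaks overlapped RARα, while RARβ reached 20.7% and 44.5%. The whole RXRα lists gave nearly the same values, 36.0% and 45.5% with RARα and 19.05% and 44.75% with RARβ. Seen from RARα, the overlap with RARβ was 38.1% in the control lists and 58.3% in the RA lists, against 31.0% and 48.8% of the whole lists, which lay inside the intervals.

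**Figure D5:**
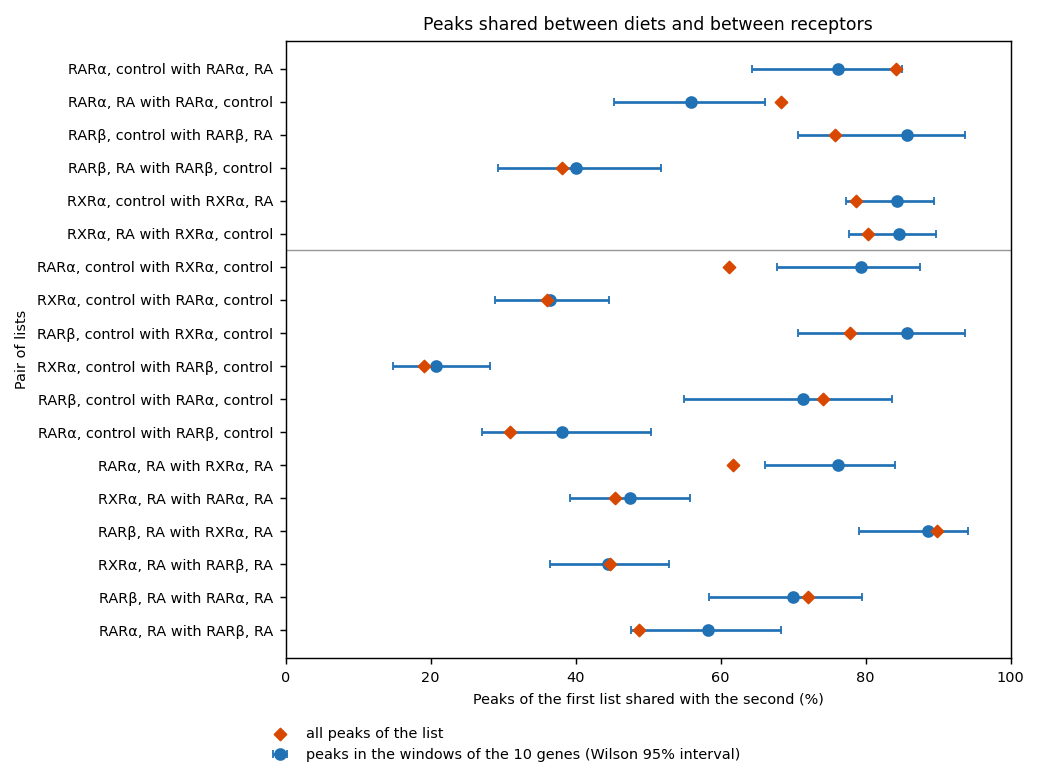
Share of peaks (horizontal axis, %) of the first list that is shared with the second, for the peaks in the 10 windows (circles with Wilson 95% intervals) and for the whole list (diamonds). The diamonds lie outside the interval for RARα under RA with RARα control and for RARα with RXRα under each diet.

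Of 40 other genes of these pathways, such as the kinases, adaptors, inhibitors and further binding proteins, 38 had a RARα peak within 10 kb of the start under each diet. In the control and RA lists, RARβ had one at 26 (65.0%) and 35 genes (87.5%), and RXRα at 37 (92.5%) and 36 (90.0%). These shares were above those of all protein-coding genes given above in all 6 lists. With lists of equal length, RXRα was near 19 and 18 of the 40 genes, and with scores from 100 upwards RARβ (control) was near 15. No share of all genes was computed at these 2 settings. A peak within 10 kb was present in all 6 lists at 25 of the 40 genes, against 38.2% of all protein-coding genes. Among the 25 were Jak2, Stat3, Cish, Pik3r1, Akt2 and Foxo1. Stat5a and Stat5b have their starts close together and share the same peaks. Igf2, which encodes the second IGF ligand, had RXRα peaks with scores of 559 under the control diet and 244 under RA. RXRα at Grb14, an inhibitor of the insulin receptor, scored 1023 and 1112. The best RARα peak at Ptpn1, a phosphatase that acts on the insulin receptor, scored 825 and 462.

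Grb10, an adaptor that inhibits insulin and IGF signalling, and Ide, the insulin degrading enzyme, had no peak within 10 kb in any list. RARβ was present under RA only at 10 genes, namely Igf1r, Igf2r, Socs1, Grb14, Sh2b2, Gab1, Pik3ca, Akt1, Inppl1 and Pappa2. It was present under the control diet only at Prlr, the prolactin receptor, with a score of 52.3. RXRα was present under the control diet only at Sh2b2, with a score of 375. RARα was present under both diets or under neither at all 40 genes. Igf1r, the receptor of IGF-I, had RARα peaks with scores of 115 under each diet, a RARβ peak under RA with 57.1, and no RXRα peak within 10 kb of its start.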

How the data were processed

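The authors aligned single-end ChIP-seq reads to mm10 with Bowtie and called peaks with MACS in 6 libraries, 1 per receptor and diet. CASAVA 1.4 is also named in the submitters' processing notes. The deposited files are 1 BED list per library with the peak caller's score, not normalized between libraries. The study's further limits on fold over input and distance were not applied here. The input library was not used here. The build was checked: each list holds 56 to 169 peaks past a chromosome end of NCBIM37, so the lists are on GRCm38 (mm10).

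Gene spans came from RefSeq (GRCm38.p6). The strand came from the RefSeq promoter table for 17492 genes and by symbol from GENCODE M1 for 4044. It was found for 21536 of 21887 protein-coding genes. A gene start is the outermost start of the span. Regions are unions of overlapping window peaks. Python 3.11.15 with pandas 2.3.3 and scipy 1.17.1 was used, and the counting steps were tested on simulated data. Samples were grouped from their titles. With 1 library per group there is no test between groups, and intervals (95%) cover counting error only. As peak lists do not measure RNA, the liver label was not checked by expression. Of 6 hepatocyte genes (Alb, Ttr, Apoa1, Apoa2, Serpina1a and Tat), all 6 had an RXRα peak within 10 kb of the start under each diet, RARα had one at 3 and 4, and RARβ at 3 and 5. The shares of all protein-coding genes were 61.3% and 61.7% for RXRα, 61.9% and 63.3% for RARα, and 44.1% and 54.7% for RARβ. These counts do not check the liver label.

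All 10 genes are named. The rule for peaks was the best peak of each gene and list, and peaks within 1 kb of a start. It also took the regions called in all 6 lists with the highest mean percentile, and 1-diet regions with a score of at least 100. Not all of these are described above. Among those left out are the best RARα peaks of Igfbp4, with scores of 216 (control, nearest to Tns4) and 202 (RA). The best RARβ control peaks of Irs1 (134, nearest to Rhbdd1) and Socs2 (101, nearest to Cradd) are also left out. Some regions outside this rule were named after their values were seen, such as those of RARα alone and those at Irs1 and Irs2. The genes and lists were chosen with earlier results of these data known. The alternatives were a score minimum of 100, lists of equal length (14968 peaks), windows of 10 kb, a peak in the gene span counted as near the start, any overlap with the window, and overlaps of 50% or 1 base.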

Additional observations from a re-analysis of the deposited data

Results flagged for a closer look

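Around the 10 genes, the count of RARα and RARβ peaks was higher with RA, and the count of RXRα peaks was lower. The quotient of the RA and control counts was 1.33 at RARα, 2.0 at RARβ and 0.979 at RXRα. The whole lists gave 1.25, 1.97 and 0.975, so the counts at these genes followed the length of the lists. The difference between the receptors was not tested, since each quotient rests on 1 library per diet. With windows of 10 kb the RXRα quotient was 1.01 and with lists of equal length 1.02, so its direction turned, while the RARα quotient was 1.3 and 1.25 and that of RARβ 2.0 and 1.23.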

How the results depend on the processing

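Of 156 recomputed values, 97 moved by less than their limit (1.5 times for counts, the Wilson interval for shares) and 59 by more. Of the 59, 24 came with lists of equal length. Each list was then cut to its 14968 best peaks, and the windows held 16 and 20 RARα peaks (control, RA), 43 RARβ peaks under RA, and 43 and 44 RXRα peaks. RXRα was then within 10 kb at 4 genes (control), within 1 kb at 3 and 4, and within 10 kb of 19 and 18 of the 40 further pathway genes. Sharing between diets was 68.57% and 53.49% at RARβ and 69.77% and 68.18% at RXRα. In the control lists, RARα lay on RXRα at 31.25%, the reverse was 11.63%, RARβ on RXRα 57.14%, the reverse 44.19%, and RARβ on RARα 20%. In the RA lists these were 40%, 18.18%, 72.09%, 68.18% and 25.58%. At equal length RXRα (43 and 44) and RARβ (35 and 43) had similar numbers of window peaks, while RARα (16 and 20) had fewer.

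With an overlap of 50%, sharing between diets was 48.57% and 24.29% at RARβ and 73.57% and 75.18% at RXRα. In the control lists, RARα on RXRα was 61.9%, the reverse 27.86%, RARβ on RXRα 51.43%, the reverse 12.86%, RARβ on RARα 48.57% and the reverse 26.98%. In the RA lists, RARα on RXRα was 58.33%, the reverse 35.77%, and RARβ on RXRα 78.57%.

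Keeping only scores from 100 upwards, the windows held 28 and 45 RARα and 7 and 41 RARβ peaks. RARβ (control) was within 10 kb at 2 genes, within 1 kb at 1 and near 15 pathway genes, and RARβ (RA) within 1 kb at 3. RARβ (RA) was shared with the control at 14.63%. In the control lists, RARα on RXRα was 64.29%, the reverse 15.74%, RXRα on RARβ 5.556%, RARβ on RARα 42.86% and the reverse 10.71%. In the RA lists, RARα on RXRα was 64.44% and the reverse 30.85%. With windows of 10 kb, the counts were 37 and 48 for RARα, 19 and 38 for RARβ, and 81 and 82 for RXRα. The settings keep fewer peaks, narrow the window or ask for a stricter match, and why single values moved was not tested.

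No paired analysis was possible because each group has 1 library and the labels give no replicate numbers. Depth is unknown, so a peak absent from a list was not detected there and cannot be called absent.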
